A study of Homo sapiens with 12 samples.

Results

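Notch signalling passes between neighbouring cells. A ligand of the Delta or Jagged family on the surface of a cell binds a Notch receptor on the next, the receptor is cut by an ADAM protease and then by γ-secretase, and the freed intracellular domain joins the DNA-binding protein RBPJ in the nucleus to switch on target genes. The best known targets are the HES and HEY genes, whose proteins are themselves transcriptional repressors, and NRARP, whose protein limits the signal. The genes described here were 10 members of this pathway, listed by name, of the 60660 genes in the deposited tables. They were the receptors NOTCH1, NOTCH2 and NOTCH3, the ligands JAG1, JAG2 and DLL1, and the targets HES1, HES4, HEY1 and NRARP. All 10 were found in the tables by their Ensembl identifiers and all 10 passed the filter on low expression.

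RNA-seq was performed in cells labelled HEK293T, a human embryonic kidney line that carries the SV40 large T antigen. They were given as wild type in the labels and grown in DMEM with fetal bovine serum. The paper's text names HEK293 cells for this experiment, and the sources used here do not settle which line it was. The cells of 12 libraries, 2 from each of 6 groups, had been transfected with control siRNA (siCTL) or with siRNA against 1 of 5 genes. The targeted genes were CARM1, an arginine methyltransferase, CHD4, HDAC2 and GATAD2A, which are subunits of the nucleosome remodeling and deacetylase (NuRD) complex, and KDM1A, a lysine demethylase found with NuRD. The study asked whether CARM1 and NuRD act on the same genes, and each knockdown was therefore compared with siCTL, so that all 5 comparisons share the same 2 control libraries.

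Sequence just upstream of the RefSeq starts of HES1 and HES4 is shown because these were the members called lower in the most knockdowns. The core of the RBPJ binding site, spelled TGGGAA, was searched on both strands in the 250 bases before the gene start in the RefSeq promoter table (GRCh38.p14). Of the 10 members 8 had an entry there (not DLL1 and HEY1), and each of the 8 matched GRCh37 exactly once. The core was present in 2 of the 8, HES1 and HES4, and in 20.8% of all 35116 promoters of this length. The sequences are given 5′ to 3′ on the strand of the gene, with the core in capitals and GRCh37 coordinates.
HES1, chr3:193853817-193853936, plus strand: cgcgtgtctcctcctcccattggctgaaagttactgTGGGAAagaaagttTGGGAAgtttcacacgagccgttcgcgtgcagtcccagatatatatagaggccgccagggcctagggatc
HES4, chr1:935536-935565, minus strand: ctggggcgagtgTGGGAAagaatgcggagc
HES1 carried 2 copies of the core, at -84 to -79 and at -70 to -65 relative to the RefSeq gene start, and HES4 carried 1, at -76 to -71. The HES4 gene in the GENCODE annotation reaches to base 935552. Part of the HES4 stretch, including most of the core, thus lies inside the annotated gene. The N box, a site bound by HES proteins and spelled CACNAG, was present in HES1 and NOTCH3 and in 32% of all promoters, and none of its copies overlapped the RBPJ core. These matches describe the letters only, since no binding was measured in these libraries.

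The libraries held 19308315 to 28648657 read pairs counted on genes. Each of the 12 libraries correlated best with the other library of its own group, and the siCHD4 libraries stood furthest from the rest, with a Pearson r of at most 0.958 to any library of another group. The siRNAs lowered CARM1 to 19.3%, HDAC2 to 19.6%, GATAD2A to 29.8% and KDM1A to 16.6% of its siCTL level. CHD4 was at 38.0 and 38.2 CPM (counts scaled to a common library size) in the siCTL libraries and at 25.5 and 26.6 in the siCHD4 libraries, 68.4% of control, and 46.9% of its exonic bases are shared with another gene annotated on the same strand. Read pairs on several genes are left out of such counts, so these CHD4 values may cover only part of the gene. How strongly CHD4 was lowered, also relative to the other targets, is therefore uncertain. Of the markers of the HEK293 line, VIM, KRT8 and KRT18 were at 74.6, 171 and 181 FPKM in siCTL, whereas NEFM and PAX2 were at 0.106 and 0.054. Of the markers of MCF7, the breast cancer line of the same study, ESR1 was at 0.00194 FPKM and TFF1 was at 0 counts in siCTL, while KRT19 was at 42.9, GATA3 at 4.66 and GREB1 at 0.958 FPKM. Of the blood cell markers PTPRC and CD3E were at 0 counts in siCTL and CD14 was at 0.164 FPKM. GREB1 was at 4.29 FPKM in siCHD4. VIM was at 126 FPKM in siCHD4, 135 in siCARM1, 97.7 in siHDAC2, 122 in siKDM1A and 47.6 in siGATAD2A, and the part of these markers in the differences below was not tested. In bulk RNA, more cells with a transcript and more transcript per cell cannot be told apart.

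In the control cells the targets NRARP and HES4 and the receptors NOTCH1 and NOTCH2 stood above the ligands. Per kilobase of exon, NRARP was at 105 and 104 FPKM in the siCTL libraries and HES4 at 95.3 and 77.8. NOTCH1 was at 34.8 and 37.8, NOTCH2 at 29.7 and 30.3, and HES1 at 29.9 and 27.4 FPKM. The other members were at or below 10 FPKM, in the order JAG2 (9.50 and 9.96), HEY1 (8.65 and 9.12), NOTCH3 (6.53 and 7.52), JAG1 (6.65 and 6.77) and DLL1 (2.83 and 2.47). The lowest member was thus a ligand, and its 203 and 212 counts in the siCTL libraries make its fold changes the least precise among the 10. Exon length joined the exons of all annotated transcripts, so the order of genes by FPKM depends on the annotation. For HEY1 this length, 5487 bases, was that of the whole gene, which lowers its FPKM. JAG1 and JAG2 were alike in CPM, with siCTL means of 61.9 and 61.8, and differ in FPKM through their lengths of 9298 and 6396 bases.

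DLL1 was higher than in siCTL in all 5 knockdowns and HES1 was lower in all 5, while the other members moved with some knockdowns and not with others. A gene was called changed at an adjusted p of 0.05 or less in edgeR's quasi-likelihood test over 12853 coding genes and a fold of at least 1.2. In siCARM1, 3 members were called lower and 2 higher, where 14.7% of all tested genes were called lower and 14.7% higher. In siCHD4, 2 were lower and 5 higher, against 25.5% and 23.4% of all genes. In siHDAC2, 2 were lower and 1 was higher (all genes, 9.28% and 10.4%), in siGATAD2A, 3 were lower and 1 was higher (18.4% and 15.4%), and in siKDM1A, 2 were lower and 2 higher (11.8% and 14.0%). With 10 members such counts are coarse, and the members were not tested as a set. The siGATAD2A count rose from 4 to 7 without siCTL replicate 1. The median log2 fold change of the 10 members was -0.12 in siCARM1, -0.09 in siHDAC2, -0.23 in siGATAD2A, -0.07 in siKDM1A and 0.20 in siCHD4, with all-gene medians between -0.01 and 0.00. Being lower in at least 4 of 5 knockdowns was found for 2 members, HES1 and HES4, and for 4.48% of all tested genes, and being higher in at least 4 of 5 for DLL1 and for 5.64% of all genes. No member had calls in opposite directions, which 9.45% of all genes had. As the 5 comparisons share the 2 siCTL libraries, calls in several knockdowns, here and below, are not independent of each other.

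**Figure D1:**
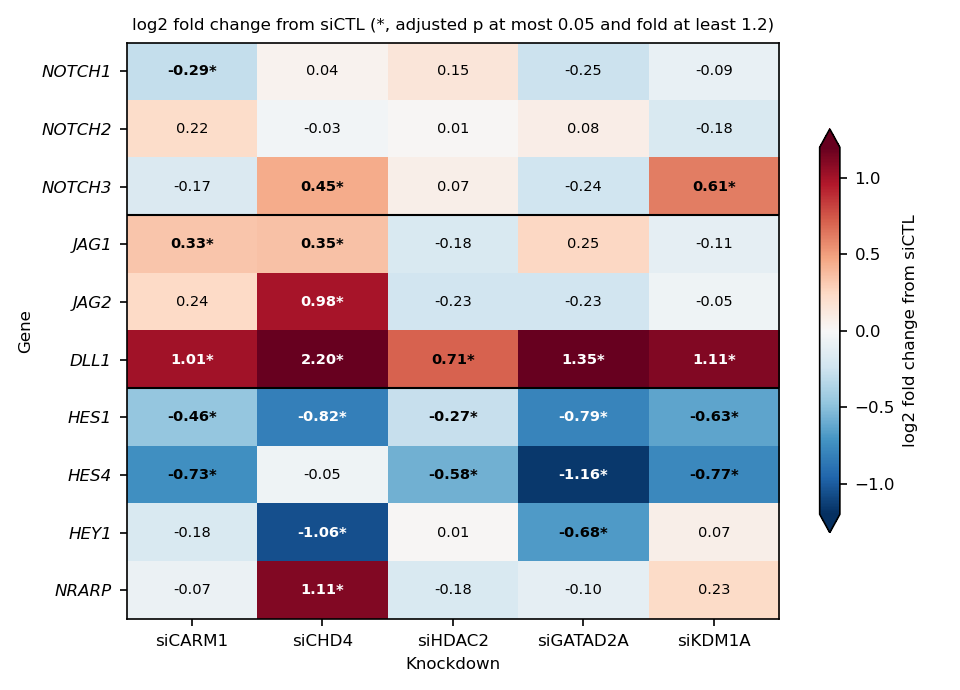
Log2 fold change from siCTL of the 10 members (rows, in the order receptors, ligands, targets) in the 5 knockdowns (columns), with red for higher, blue for lower and an asterisk for an adjusted p of at most 0.05 and a fold of at least 1.2. The DLL1 row is red throughout, from 0.71 to 2.20, and the HES1 row is blue throughout, from -0.82 to -0.27.

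Among the receptors, NOTCH3 was higher in siCHD4 and siKDM1A, NOTCH1 was slightly lower in siCARM1, and NOTCH2 was called in none of the 5 comparisons. NOTCH3 (ENSG00000074181.9, GRCh37 chromosome 19, 15269849 to 15311806, minus strand) encodes a receptor best known from vascular smooth muscle. It was at 60.8 and 70.4 CPM in the siCTL libraries, at 93.7 and 85.4 in siCHD4 and at 100 and 101 in siKDM1A, so that all 4 of these knockdown libraries lay above both controls. The log2 fold change was 0.45 (SE 0.0614, adjusted p = 1.91e-07) in siCHD4 and 0.61 (SE 0.061, adjusted p = 1.36e-09) in siKDM1A. In the other knockdowns NOTCH3 was at 59.6 and 57.0 CPM in siCARM1, 67.2 and 71.1 in siHDAC2 and 55.0 and 56.8 in siGATAD2A. None of these differed from siCTL by the call, with log2 fold changes of -0.17, 0.07 and -0.24, although without siCTL replicate 1 siCARM1 and siGATAD2A were called lower at -0.27 and -0.34. The difference between siKDM1A and siGATAD2A was itself called, at 0.85 (SE 0.061), as were those of both siCHD4 and siKDM1A from siCARM1, siHDAC2 and siGATAD2A.

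NOTCH1 (ENSG00000148400.12, chromosome 9, 139388885 to 139440500, minus strand), the receptor most often mutated in T-cell leukaemia, was at 431 and 471 CPM in siCTL and at 389 and 350 in siCARM1. Both siCARM1 libraries lay below both controls, and the log2 fold change was -0.29 (SE 0.0467, adjusted p = 6.68e-06). This change is near the fold minimum, and the call was lost without siCTL replicate 2 and without siCARM1 replicate 2, both at -0.22. In siGATAD2A, at 376 and 381 CPM, the change of -0.25 had an adjusted p of 3.39e-05 but missed the fold minimum, which it passed without siCTL replicate 1 at -0.32. The difference between siGATAD2A and siCARM1 was 0.04 (SE 0.0466). NOTCH1 was at 463 and 466 CPM in siCHD4, 483 and 516 in siHDAC2 and 437 and 413 in siKDM1A.

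NOTCH2 (ENSG00000134250.20, chromosome 1, 120454176 to 120643366, minus strand), the receptor affected in Alagille syndrome together with JAG1, varied least of the 10, with log2 fold changes from -0.18 in siKDM1A to 0.22 in siCARM1. It was at 493 and 505 CPM in siCTL, 586 and 578 in siCARM1 and 444 and 438 in siKDM1A, and between 478 and 531 in the other 6 libraries. The siCARM1 and siKDM1A libraries thus lay on opposite sides of the controls, and the difference between these knockdowns, -0.40 (SE 0.0371) for siKDM1A against siCARM1, was the only one of the 10 pairs called for this gene. NOTCH2 has near-identical partial copies, of which NOTCH2NLA had 15 to 40 and NOTCH2NLC 81 to 157 counts per library. Reads that fit several places are absent from the counts, so the level of NOTCH2 is uncertain where it matches its copies.

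**Figure D2:**
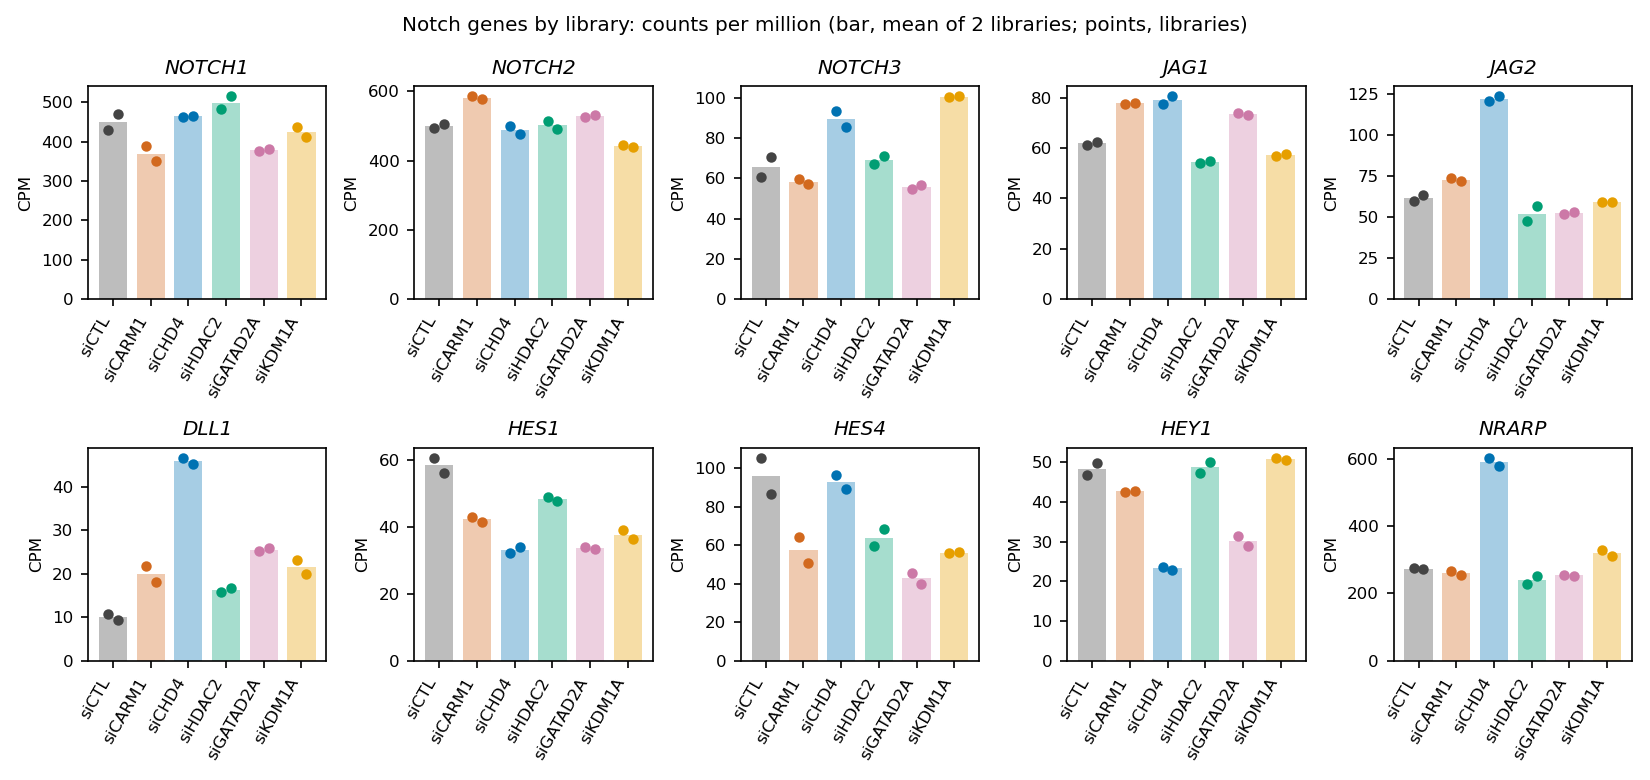
CPM (linear axis from 0) of the 10 members by group, with points for the 2 libraries and bars for their mean. DLL1 has its lowest points, 10.7 and 9.39 CPM, in siCTL, HES1 has its highest, 60.8 and 56.2 CPM, in siCTL, and JAG2, DLL1 and NRARP peak in siCHD4.

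All 3 ligands were higher in siCHD4, and DLL1 was higher in each of the other knockdowns too. DLL1 (ENSG00000198719.9, chromosome 6, 170591294 to 170615653, minus strand) encodes a Delta ligand that acts in somite formation and in the choice of neural cell fate. It was at 10.7 and 9.39 CPM in siCTL, 21.8 and 18.2 in siCARM1, 46.7 and 45.2 in siCHD4, 15.8 and 16.8 in siHDAC2, 25.2 and 25.9 in siGATAD2A and 23.2 and 20.0 in siKDM1A. Each of the 10 knockdown libraries lay above both controls. The rise was 4.59-fold in siCHD4 (log2 2.20, SE 0.0969, adjusted p = 1.09e-18), 2.55-fold in siGATAD2A (1.35, SE 0.103), 2.16-fold in siKDM1A (1.11, SE 0.105), 2.01-fold in siCARM1 (1.01, SE 0.106) and 1.64-fold in siHDAC2 (0.71, SE 0.109, adjusted p = 6.58e-06). The siCHD4 level exceeded that of each other knockdown by 0.85 to 1.49 on the log2 scale, all 4 differences being called.

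Below siCHD4 the order of DLL1 levels was siGATAD2A, siKDM1A, siCARM1, siHDAC2 and siCTL. Neighbours in this order were not called different between siGATAD2A and siKDM1A (0.24, SE 0.0891) or between siKDM1A and siCARM1 (0.10, SE 0.0918). The step from siHDAC2 to siCARM1 was called at 0.30 (SE 0.0953), but it fell to 0.15 without siCARM1 replicate 1 and to 0.26 without siHDAC2 replicate 1, and neither was called. The calls of siGATAD2A over siCARM1 (0.35) and of siKDM1A over siHDAC2 (0.40) were likewise lost without siCARM1 replicate 2 (0.23) and without siKDM1A replicate 1 (0.29). Of the exonic bases of DLL1, 9.69% lie opposite FAM120B on the other strand, and the fold changes kept their direction and call when counts of both strands were used.

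JAG2 (ENSG00000184916.9, chromosome 14, 105607319 to 105635161, minus strand), a Jagged ligand needed for limb and thymus development, was at 60.1 and 63.4 CPM in siCTL and at 121 and 124 in siCHD4. This was a 1.98-fold rise (log2 0.98, SE 0.0604, adjusted p = 3.79e-15), and the siCHD4 level was above that of each other knockdown by 0.75 to 1.22. In the remaining groups JAG2 was at 73.7 and 71.9 CPM in siCARM1, 47.5 and 57.0 in siHDAC2, 51.9 and 53.3 in siGATAD2A and 59.5 and 59.6 in siKDM1A. None of the 4 was called against siCTL. The values were 0.24 in siCARM1, -0.23 in both siHDAC2 and siGATAD2A, and -0.05 in siKDM1A. Several of these lay just under the fold minimum and passed it without a library, siCARM1 at 0.28 without siCTL replicate 2, siGATAD2A at -0.27 without siCTL replicate 1, and siHDAC2 at -0.27 without siCTL replicate 1 and at -0.38 without siHDAC2 replicate 2. A long noncoding gene on the same strand shares 7.33% of the exonic bases of JAG2.

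JAG1 (ENSG00000101384.12, chromosome 20, 10618332 to 10654647, minus strand), the Jagged ligand whose loss causes Alagille syndrome, was at 61.2 and 62.6 CPM in siCTL, 77.7 and 78.1 in siCARM1 and 77.4 and 80.7 in siCHD4. Both groups lay above the controls without overlap, with log2 fold changes of 0.33 (SE 0.0531, adjusted p = 6.1e-06) and 0.35 (SE 0.0531, adjusted p = 9.11e-07). The siCHD4 and siCARM1 levels differed by 0.02 (SE 0.0512). JAG1 was at 74.1 and 73.1 CPM in siGATAD2A, a change of 0.25 (adjusted p = 0.000224) that missed the fold minimum, and reached it at 0.27 without siCTL replicate 2. It was at 53.9 and 55.0 CPM in siHDAC2 and 56.8 and 57.8 in siKDM1A. The 3 knockdowns with the higher levels, siCARM1, siCHD4 and siGATAD2A, were each called higher than both siHDAC2 and siKDM1A, by 0.36 to 0.54.

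Among the targets, HES1 was lower in all 5 knockdowns, HES4 in 4, HEY1 in 2 and NRARP in none, while NRARP rose in siCHD4. HES1 (ENSG00000114315.4, chromosome 3, 193853937 to 193856521, plus strand) encodes a basic helix-loop-helix repressor that keeps progenitor cells undifferentiated. The 2 copies of the letters TGGGAA shown above, both on the strand of the gene, lie upstream of HES1. HES1 was at 60.8 and 56.2 CPM in siCTL, 43.2 and 41.5 in siCARM1, 32.2 and 34.1 in siCHD4, 49.2 and 47.7 in siHDAC2, 34.1 and 33.4 in siGATAD2A and 39.1 and 36.3 in siKDM1A. All 10 knockdown libraries lay below both controls. The level fell by 43.3% in siCHD4 (log2 -0.82, SE 0.0657, adjusted p = 2.37e-12), by 42.2% in siGATAD2A (-0.79, SE 0.0654), by 35.5% in siKDM1A (-0.63, SE 0.0648), by 27.5% in siCARM1 (-0.46, SE 0.0638) and by 17.2% in siHDAC2 (-0.27, SE 0.0632, adjusted p = 0.0011).

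The siHDAC2 change of HES1 was close to the fold minimum, and its call was lost without siCTL replicate 1 (-0.22) and without siHDAC2 replicate 2 (-0.25). HES1 was lower in siCHD4, siGATAD2A and siKDM1A than in siHDAC2, by 0.55, 0.52 and 0.36 on the log2 scale, and lower in siCHD4 and siGATAD2A than in siCARM1, by 0.36 and 0.33. The siCHD4 and siGATAD2A levels differed by 0.03 (SE 0.0683). In the order of levels from siCHD4 up to siCTL, only the last step, from siHDAC2 to siCTL, was called between neighbours.

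HES4 (ENSG00000188290.11, chromosome 1, 934342 to 935552, minus strand), a HES family repressor found in humans but not in mice, showed a different pattern. It was at 105 and 86.6 CPM in siCTL, 64.2 and 50.5 in siCARM1, 59.5 and 68.3 in siHDAC2, 45.7 and 40.1 in siGATAD2A and 55.9 and 56.4 in siKDM1A, all 8 knockdown libraries lying below both controls. In siCHD4 it was at 96.3 and 89.0 CPM, within the range of the controls. HES4 fell by 55.2% in siGATAD2A (log2 -1.16, SE 0.0874, adjusted p = 1.46e-12), by 41.4% in siKDM1A (-0.77, SE 0.0852), by 39.8% in siCARM1 (-0.73, SE 0.0847) and by 33% in siHDAC2 (-0.58, SE 0.0841). The change in siCHD4 was -0.05 (SE 0.0815, adjusted p = 0.619), and it was 0.10 without siCTL replicate 1 and 0.01 without siCHD4 replicate 2. The difference of siCHD4 from each other knockdown was called, HES4 being higher in siCHD4 by 0.69 than in siCARM1, by 0.53 than in siHDAC2, by 1.11 than in siGATAD2A and by 0.72 than in siKDM1A. The siGATAD2A level was in turn called lower than that of each other knockdown, although the difference from siCARM1, -0.42, was -0.23 and not called without siCARM1 replicate 1.

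HEY1 (ENSG00000164683.18, chromosome 8, minus strand), a repressor of the Hairy-related family that acts in the heart and vessels, fell in siCHD4 and siGATAD2A. It was at 46.9 and 49.8 CPM in siCTL, 23.6 and 23.0 in siCHD4 and 31.6 and 29.0 in siGATAD2A. The siCHD4 libraries were the lowest of the 12 and the siGATAD2A libraries the next. HEY1 fell by 51.9% in siCHD4 (log2 -1.06, SE 0.0692, adjusted p = 1.92e-14) and it fell by 37.4% in siGATAD2A (-0.68, SE 0.0667, adjusted p = 5.19e-10), and the difference between them, 0.38 (SE 0.0716), was called. It was at 42.5 and 42.8 CPM in siCARM1, 47.4 and 50.1 in siHDAC2 and 51.2 and 50.6 in siKDM1A, with log2 fold changes of -0.18, 0.01 and 0.07, none called. Both siCHD4 and siGATAD2A were called lower than each of these 3 knockdowns.

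NRARP (ENSG00000198435.4, chromosome 9, 140194083 to 140196723, minus strand), a small ankyrin-repeat protein that is induced by Notch and promotes loss of its intracellular domain, was the target that rose. It was at 274 and 272 CPM in siCTL and at 603 and 580 in siCHD4, a 2.16-fold rise (log2 1.11, SE 0.0445, adjusted p = 9.57e-20). In the same 2 libraries HES1 and HEY1 were at their lowest or near it. NRARP was at 267 and 253 CPM in siCARM1, 228 and 253 in siHDAC2, 256 and 253 in siGATAD2A and 328 and 311 in siKDM1A. None of these was called against siCTL, with log2 fold changes of -0.07, -0.18, -0.10 and 0.23, although siKDM1A reached the fold minimum at 0.26 without siKDM1A replicate 2. The siCHD4 level exceeded that of every other knockdown by 0.89 to 1.30, and siKDM1A exceeded siCARM1, siHDAC2 and siGATAD2A by 0.30, 0.41 and 0.33. The call against siCARM1 was lost, at 0.26 each, without siCARM1 replicate 2 and without siKDM1A replicate 1.

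**Figure D3:**
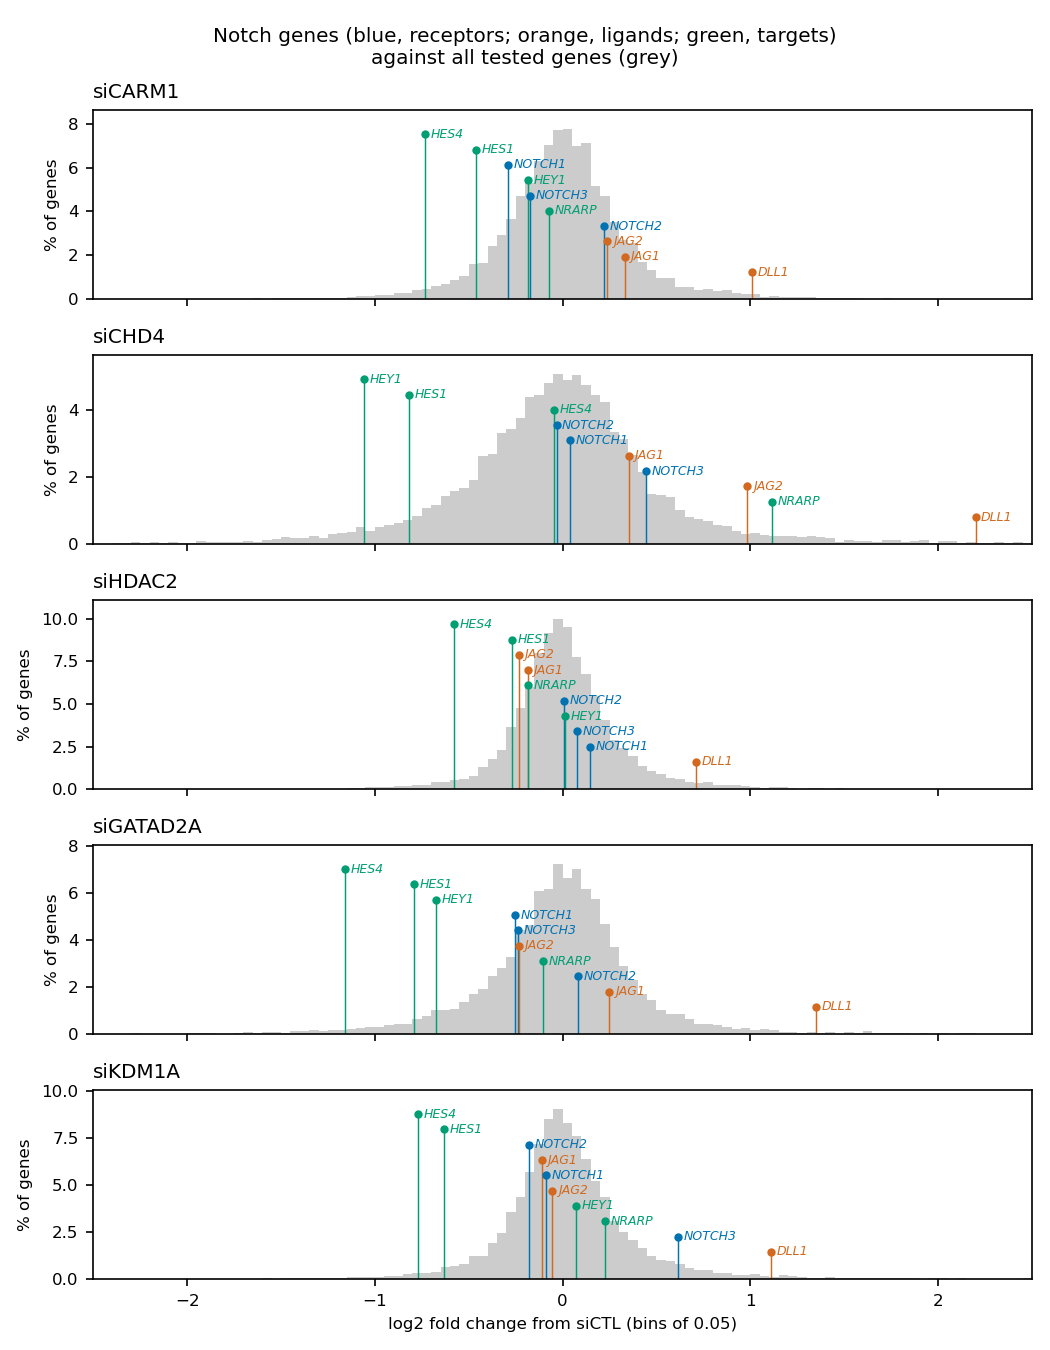
Distribution of log2 fold changes from siCTL over all 12853 tested genes (grey, percent of genes in bins of 0.05 on the log2 scale) for each knockdown, with the 10 members as lines (blue for receptors, orange for ligands, green for targets) whose heights only keep the names apart. The grey distribution is widest in siCHD4, with an SD of 0.738, and DLL1 lies in its right tail in all 5 panels.

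The knockdowns were also compared with each other. Of the 100 differences between pairs of knockdowns (10 members in 10 pairs), 59 were called, where 33.9% of the differences were called over all tested genes. These shares are not like for like, since all tested genes include many at lower counts, where calls are harder to reach. The members were also chosen with earlier results of these data known, and an excess over genes of similar level was not tested. The number of called pairs was 8 of 10 for DLL1, 7 each for NOTCH3, JAG2, HES4, HEY1 and NRARP, 6 for JAG1, 5 for HES1, 4 for NOTCH1 and 1 for NOTCH2. A knockdown library takes part in several of these pairs, so the 100 differences are not independent. In fits of siCTL with 1 knockdown alone, which leave the siCHD4 libraries out of the other comparisons, all 50 fold changes of the members kept their direction and call.

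The spread of the members over the libraries can be described by correlation of their log2 CPM over the 12 libraries, which include 2 of each group and so are not 12 independent samples. NRARP and JAG2 followed each other (Pearson r of 0.911), and NRARP and DLL1 did so less closely (0.747). All of these were highest in the siCHD4 libraries. Outside siCHD4 their highest means lay in different groups, JAG2 in siCARM1 (72.8 CPM), NRARP in siKDM1A (320) and DLL1 in siGATAD2A (25.5). For these genes r, here and below, was not computed without the siCHD4 libraries, so it does not show that they vary together across the other knockdowns. HES1 and HEY1 were at 0.708 and HES1 and HES4 at 0.42. DLL1 ran opposite to HES1 (-0.897) and HEY1 (-0.827), as did NOTCH2 to NOTCH3 (-0.819). The genes named next were picked for the highest r to each member among all tested genes. A high r is thus built into the choice and does not show shared regulation. Of all tested genes, those with the highest r to DLL1 were VEGFA, the vascular endothelial growth factor (0.985), and ANKRD52 (0.982). Those closest to NRARP were IL11, a cytokine (0.99), and TCEAL7 (0.981), those closest to HES1 were TOB1, an antiproliferative protein (0.963), and LRRC45 (0.956), and those closest to HES4 were UBE2L6, an ISG15-conjugating enzyme (0.953), and HAP1 (0.946). HEY1 was followed most closely by RNPEP (0.987) and FAR2 (0.979), JAG2 by ZNF853 (0.982) and CD55 (0.981), and JAG1 by UBE3C (0.955) and MMACHC (0.944). For the receptors these genes were BMERB1 (0.979) and FAM131B (0.967) for NOTCH3, PHLPP1 (0.957) and MYCBP2 (0.946) for NOTCH2, and PNPLA7 (0.927) and ABCF3 (0.924) for NOTCH1.

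A list of 50 other genes of the pathway covered further receptors and ligands, receptor cleavage, receptor glycosylation, ligand ubiquitination, the nuclear complex with its corepressors, receptor turnover and further HES and HEY factors. Of these 45 were tested (not NOTCH4, DLK1, PSEN2, DTX1 and DTX3). In siCARM1 10 were lower and 5 higher (all genes, 14.7% and 14.7%), in siCHD4 9 and 11 (25.5% and 23.4%), in siHDAC2 7 and 2 (9.28% and 10.4%), in siGATAD2A 10 and 5 (18.4% and 15.4%), and in siKDM1A 4 and 6 (11.8% and 14.0%). The list was not tested as a set. The siHDAC2 count of 9 dropped to 4 without siCTL replicate 2. The median log2 fold change of the 45 lay between -0.07 and -0.01 in each knockdown. The 11 genes of the nuclear complex and corepressors had 4 lower and 1 higher in siCHD4, where all genes were also called most often, and RBPJ itself was called lower in siGATAD2A only, at -0.32, with -0.24 in siCHD4. The 8 genes of receptor cleavage had 3 higher and none lower in siCHD4 (all genes, 23.4% and 25.5%), and 1 call in each other knockdown. PSENEN, among those 3, was at means of only 1.68 CPM in siCTL and 2.59 in siCHD4. A coding gene on the same strand shares 21% of its exonic bases.

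SPEN, a corepressor that binds RBPJ when Notch is silent, was the pathway gene lower in all 5 knockdowns. It was at 1011 and 973 CPM in siCTL, 667 and 634 in siCARM1, 466 and 477 in siCHD4, 812 and 812 in siHDAC2, 747 and 745 in siGATAD2A and 637 and 630 in siKDM1A. Each of the 10 knockdown libraries lay below both controls, as for HES1. The log2 fold changes were -0.61 (SE 0.0357), -1.07 (SE 0.0361), -0.29 (SE 0.0355), -0.41 (SE 0.0355) and -0.65 (SE 0.0357) in the same order, and the siHDAC2 call was lost without siCTL replicate 1 at -0.26.

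MFNG and HES2 were called in 4 knockdowns each, at few counts. Among the 45 tested pathway genes only SPEN and MFNG were lower, and only HES2 was higher, in at least 4 of 5 knockdowns. Over all tested genes 4.48% were lower and 5.64% higher in at least 4 of 5, so the list did not stand out by such calls. MFNG, a glycosyltransferase that modifies Notch receptors, was called lower in 4 knockdowns at -1.05 in siCARM1, -0.84 in siCHD4, -0.89 in siHDAC2 and -0.72 in siGATAD2A, from 1.89 and 1.68 CPM in siCTL. These calls are not firm, since each was lost when a library was left out (for siCARM1, at -0.89 without siCARM1 replicate 1) and DESeq2 called none of the last 3, with adjusted p of 0.0807, 0.115 and 0.15. HES2, a HES factor, was called higher in 4 knockdowns, from 1.79 and 1.51 CPM in siCTL to 4.48 and 4.95 in siKDM1A (log2 1.52, SE 0.216), with 0.88 in siCARM1, 0.76 in siCHD4 and 0.77 in siHDAC2. The siCHD4 and siHDAC2 calls of HES2 were lost without siCTL replicate 2 (both at 0.64), and the latter also without siHDAC2 replicate 2 (0.65).

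DLK2, a ligand-like membrane protein that limits Notch signalling, showed the largest change of the pathway list. It rose 7.01-fold in siCHD4 (log2 2.81, SE 0.205), from 1.37 and 1.33 to 9.88 and 9.07 CPM, and was also called in siCARM1 (1.06) and siGATAD2A (0.69). The siGATAD2A call was lost without siCTL replicate 1 (0.71), siCTL replicate 2 (0.67) or siGATAD2A replicate 1 (0.57), and it was not made by DESeq2 (adjusted p = 0.0607) or by edgeR with no filter on low genes (adjusted p = 0.074). HES5, a HES factor known from neural progenitors, was near 1 CPM in siCTL, at 0.947 and 1.15, and fell by 1.41 in siHDAC2 and by 1.68 in siGATAD2A on the log2 scale. The siHDAC2 call of HES5 was lost without siCTL replicate 2 (-1.25) and without siHDAC2 replicate 2 (-1.40).

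**Figure D4:**
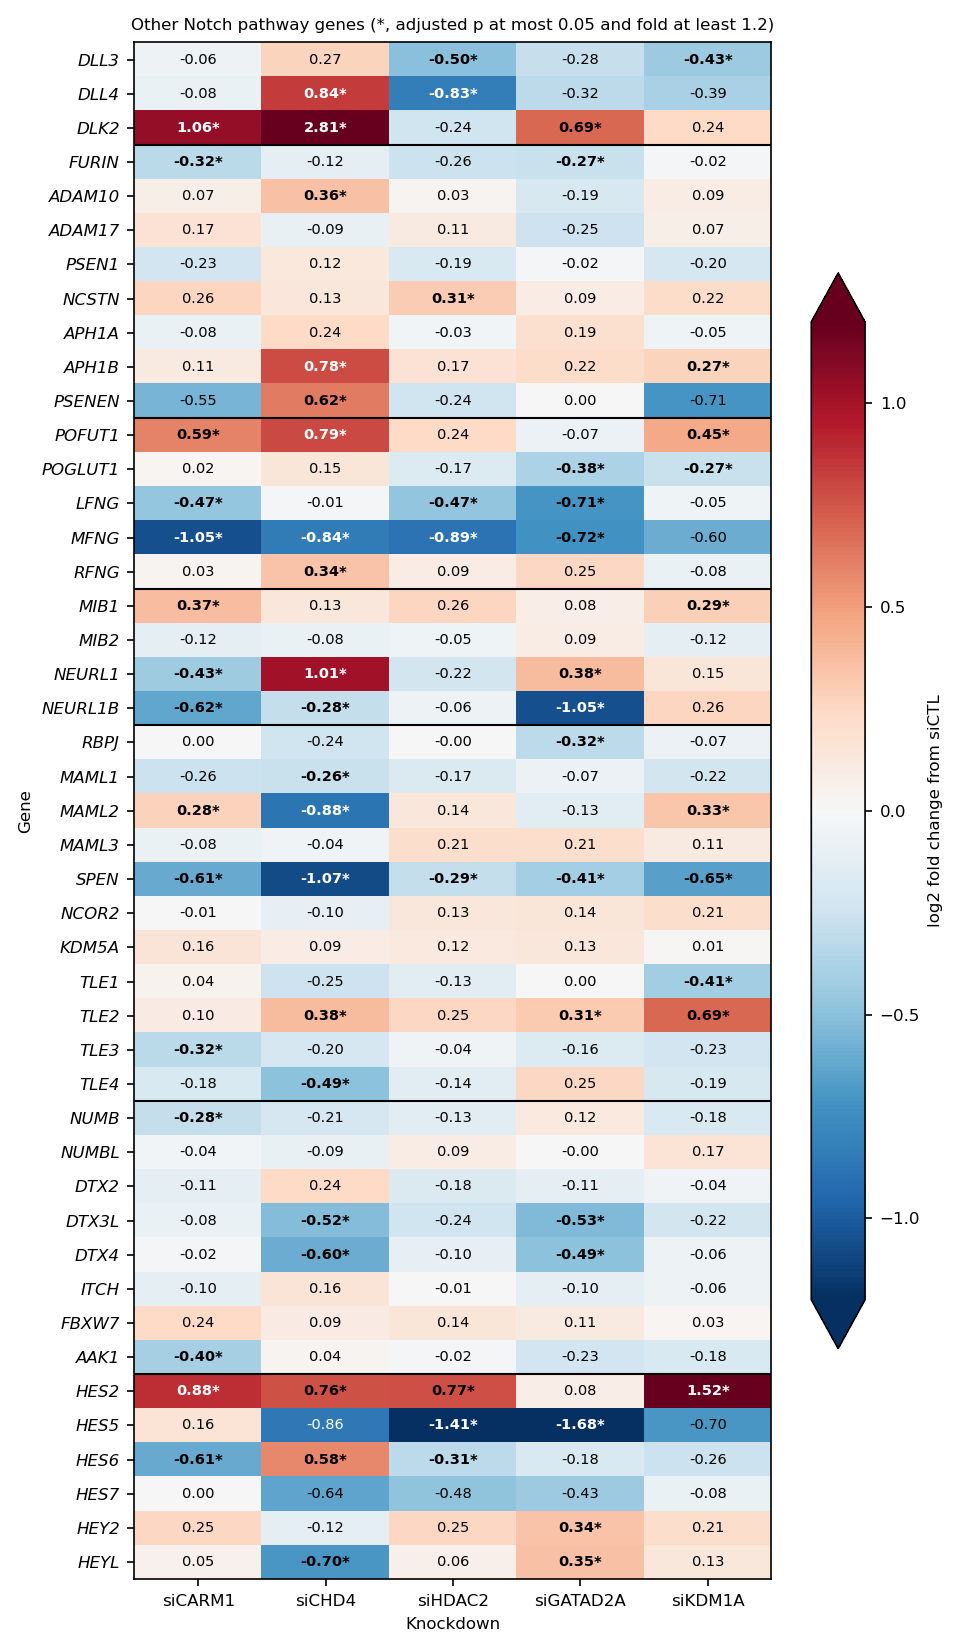
Log2 fold change from siCTL of the 45 tested genes of the wider pathway list (rows, with lines between roles) in the 5 knockdowns (columns), with red for higher, blue for lower and an asterisk for an adjusted p of at most 0.05 and a fold of at least 1.2. SPEN is blue in every column, from -1.07 to -0.29, and DLK2 has the highest value, 2.81 in siCHD4.

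The choice of a fold minimum mattered more for the members than the choice of test. Without it, 9 members were called in siCARM1, 7 in siHDAC2 and 8 in siGATAD2A in place of 5, 3 and 4. Of all 12853 tested genes 6000, 4555 and 6610 were then called in the same knockdowns, and 48.3% of all gene and knockdown combinations over the 5 together. In siKDM1A the changes of NOTCH2 (-0.18) and NRARP (0.23) were also called without it, whereas in siCHD4 NOTCH1, NOTCH2 and HES4 were called neither way. The changes called against siCTL for NOTCH3, JAG1, JAG2, DLL1, HES4, HEY1 and NRARP kept their call in every fit that left out 1 library.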

How the data were processed

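RNA-seq of 12 libraries labelled HEK293T, from 6 siRNA groups, was used, with 2 libraries per group. Total RNA was sequenced in pairs after directional library preparation. The deposited tables hold, for every Ensembl gene, the raw counts of read pairs on both strands together and on each strand. STAR 2.7.10, CASAVA 1.4 and the build hg19 are named in the submitters' processing notes, whereas the paper's methods name TopHat, HOMER and RefSeq. The annotation behind the counts is not given in the sources used here. In this layout pairs with several locations or on several genes are left out.

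Counts of the reverse strand (column 4) were used. Identifiers were matched to GENCODE release 44 on GRCh37 for 58662 of 60660 genes (96.7%). The 1954 unmatched identifiers held 1.75% to 2.61% of the counts of a library and were left out, as were 44 copies on the Y pseudoautosomal regions. CPM and FPKM were computed from the counts. CPM used the library total times its TMM factor, a scaling factor between libraries. FPKM was given per kilobase of exon, with the exons of all annotated transcripts of a gene joined, and used the library total without that factor. Coding genes with a group mean FPKM above 0.5, 12853 in all, were tested in edgeR 4.0.16 (R 4.3.3) with TMM factors of 0.978 to 1.01 and a model of 6 group means, by the quasi-likelihood test with Benjamini-Hochberg adjustment within each comparison. The common biological coefficient of variation was 3.47%. A gene was called at an adjusted p of at most 0.05 and a minimum fold of 1.2, as in the study, whose DESeq2 was run as an alternative (version 1.42.0). The alternatives were DESeq2's size factors in edgeR, DESeq2, counts without regard to strand, a replicate block, fits of only the 2 groups compared, FPKM larger than 1, no filter on low genes, no fold minimum, and each library left out in turn. The fits were tested on simulated data.

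The members and lists were chosen with earlier results of these data known. Of the wider pathway list, genes are named if called in the same direction in at least 4 of 5 knockdowns or if they had the largest called rise or fall of a comparison, and for each member the 2 tested genes with the highest Pearson r of log2 CPM (prior count 1) are named. Other names were chosen after their values were seen. A blood cell marker of the list is not reported here. No source says that the libraries of a group came from separate cultures, so the p-values measure only the spread between these libraries, which may be technical. For a single gene, the smallest p of an exact two-sided permutation test of 2 against 2 libraries is 0.333. Sequencing was performed at 1 of 2 companies, the labels do not say which for each library, and its part in the differences was not tested. The replicate numbers did not pair the libraries, as described with the alternatives.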

Additional observations from a re-analysis of the deposited data

Results flagged for a closer look

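No member was called in opposite directions, and 5 of the 45 tested genes of the wider pathway list were, where 9.45% of all tested genes were. They were chosen for these opposite calls after their values were seen, so each difference is given with its standard error and no p. DLL4, a Delta ligand of vessels, was higher in siCHD4 (0.84) and lower in siHDAC2 (-0.83), a difference of 1.67 (SE 0.166) on the log2 scale, at a mean of 99 counts in siCTL. NEURL1, a ubiquitin ligase for ligands, was higher in siCHD4 (1.01) and lower in siCARM1 (-0.43), a difference of 1.44 (SE 0.098), although the siCARM1 call was lost without siCTL replicate 2 (-0.33). It was also called higher in siGATAD2A (0.38), a call lost without siCTL replicate 1 (0.29) and without siGATAD2A replicate 1 (0.27). MAML2, a coactivator of the RBPJ complex, was higher in siKDM1A (0.33) and lower in siCHD4 (-0.88), a difference of 1.21 (SE 0.105), and the siKDM1A call was lost without siCTL replicate 1 (0.29). It was also called higher in siCARM1 (0.28), but not by DESeq2 (adjusted p = 0.0559), and that call was lost without siCTL replicate 1 (0.23) and without siCARM1 replicate 2 (0.24). HES6, a HES factor that counteracts HES1, was higher in siCHD4 (0.58) and lower in siCARM1 (-0.61), a difference of 1.19 (SE 0.111). It was also called lower in siHDAC2 (-0.31), but not by DESeq2 (adjusted p = 0.0801), and the call was lost without any 1 of the siCTL and siHDAC2 libraries (-0.37 to -0.26). HEYL, a Hairy-related repressor, was higher in siGATAD2A (0.35) and lower in siCHD4 (-0.70), a difference of 1.05 (SE 0.0943). The siCHD4 libraries, which stood furthest from the rest, take part in all 5.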

How the results depend on the processing

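The 50 fold changes of the members kept their direction and call under the replicate block, DESeq2, DESeq2's size factors, fits of 2 groups, counts without regard to strand and FPKM larger than 1. The replicate numbers were not found to mark pairs, as the deviations of same-numbered libraries correlated at -0.124 to 0.137 over the 15 pairs of groups, and with the replicate block 7 members were called in siCHD4, as without it. With no fold minimum the members called rose to 9 in siCARM1, 7 in siHDAC2 and 8 in siGATAD2A, and the pathway genes to 31 in siCHD4, 20 in siKDM1A, 17 in siHDAC2 and 25 in siGATAD2A. The calls over all 12853 tested genes rose too, to 6000 in siCARM1, 4555 in siHDAC2, 6610 in siGATAD2A and 5439 in siKDM1A. Over the 5 knockdowns together 48.3% of all gene and knockdown combinations were then called. With no filter on low genes 7 members were called in siGATAD2A, where NOTCH1 (-0.29), NOTCH3 (-0.28) and JAG2 (-0.27) then passed the fold minimum, and the uncalled siHDAC2 values turned negative for NOTCH2 (-0.012) and HEY1 (-0.011). Leaving out 1 library gave 4 to 7 members in siGATAD2A (7 without siCTL replicate 1) and 4 to 9 pathway genes in siHDAC2 (4 without siCTL replicate 2). It also turned the sign of 5 uncalled values, which then ranged from -0.017 to 0.113 for NOTCH1 and from -0.182 to 0.101 for HES4 in siCHD4, and in siHDAC2 from -0.024 to 0.043 for NOTCH2, from -0.024 to 0.189 for NOTCH3 and from -0.032 to 0.057 for HEY1. The cause was not tested. Among the members depth limits DLL1 most.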
